A study of Mus musculus with 6 samples.

Results

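The transcripts described here are those of 10 AP-1 and immediate early transcription factor genes, chosen by gene symbol. They include the AP-1 subunit genes Fos, Fosb, Fosl1, Fosl2, Jun, Junb and Jund. The others are the related bZIP gene Atf3 and the zinc finger and nuclear receptor genes Egr1 and Nr4a1. Each symbol matched 1 of the 35275 genes of the deposited tables, and all 10 were among the 15720 genes with enough counts to be tested. The 6 RNA-seq libraries were made from total RNA of back skin, its epithelial region, in C57BL/6 mice: 3 from IL-33 KO mice, which lack the epithelial alarmin cytokine interleukin-33, and 3 from WT mice. Mice of both genotypes had been painted on the back with 0.25% DNFB, a contact allergen dissolved in acetone and olive oil, 3 times a week for 22 days, so there was no untreated skin. The age of the mice and the way in which the IL-33 KO line was made are not given in the sources. The labels number the libraries within a genotype without saying that each is a separate animal, and p-values then reflect only how far these libraries spread, which may be technical.

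AP-1 is a dimer of basic leucine zipper proteins, in which a Jun subunit pairs with a Fos subunit or with another Jun, and which binds short DNA sites in the regulatory regions of growth, stress and inflammation genes. Fos, Fosb, Egr1 and Nr4a1 are classical immediate early genes: their transcripts appear within minutes of a growth factor, cytokine, calcium or stress signal, need no new protein synthesis, and decay quickly. In epidermis AP-1 subunits are expressed in different layers and take part in keratinocyte proliferation, differentiation and wound repair. IL-33 signals through its receptor to NF-kB and to MAP kinases, and MAP kinases act on the promoters of immediate early genes.

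Total counts ranged over 20459574 to 23671769 in IL-33 KO libraries and 21312392 to 24359612 in WT libraries. Il33 itself had 11 to 22 counts in IL-33 KO libraries and 2817 to 3906 counts in WT libraries. The keratinocyte keratin gene Krt14 averaged 16774 ± 3636 CPM (counts scaled to library size with TMM factors) in IL-33 KO libraries. In WT libraries it averaged 23341 ± 6853 CPM (SD, n = 3 each). The fibroblast marker Col1a1 averaged 3945 ± 158.55 CPM in IL-33 KO libraries and 4739.5 ± 1384.3 CPM in WT libraries. Transcripts of keratinocytes and of fibroblasts were thus present in both genotypes. Mitochondrial genes took 1.42% to 1.81% of the counts in IL-33 KO libraries and 1.41% to 2.02% in WT libraries.

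Fos, Fosb and Nr4a1 stood lowest in IL-33 KO relative to WT skin, at 46.4%, 26.1% and 51.9% of the WT mean CPM, and each was lower in every IL-33 KO library than in any WT library, as were 6.47% of all tested genes. Over all tested genes, edgeR's quasi-likelihood test with Benjamini-Hochberg adjustment called 0 of the 10 factors at 0.05, where it called 0.0191% of all genes, and 0.00636% as lower in IL-33 KO. A p that misses this threshold does not show that a level was equal in both genotypes. At an unadjusted p under 0.05 the same 3 factors passed, all lower in IL-33 KO, where 9.02% of all tested genes did so and 4.15% did so in the lower direction. DESeq2 called these 3 factors at an adjusted p of 0.05, all lower, against 1.26% of all genes it tested and 0.255% that it called lower. Of the remaining factors, Fosl1, Junb and Atf3 had lower IL-33 KO means with overlapping libraries, and the mean CPM of Fosl2, Jun, Jund and Egr1 differed least between the genotypes.

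Fos, the founding member of the Fos family (ENSMUSG00000021250, mm10 chr12:85473890-85477273, plus strand), had 47.1, 53.4 and 68.3 CPM in the IL-33 KO libraries 1, 2 and 3. In WT 1, 2 and 3 it had 79.3, 169 and 115 CPM. WT 2 was more than 2 times as high as WT 1, and WT 1 lay only a little above IL-33 KO 3, so the groups were separate but close at their edges. The log2 fold change, IL-33 KO minus WT, was -1.11 ± 0.27 (SE), with a 95% interval of -1.73 to -0.48, and the adjusted p was 0.376 in edgeR and 0.0102 in DESeq2. The log2 fold change was -0.79 without WT 2 and -1.34 without WT 1.

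Fosb, a Fos family subunit that is scarcely expressed without a stimulus (ENSMUSG00000003545, chr7:19302721-19310045, minus strand), had the lowest mean CPM of the 10 in both genotypes and the log2 fold change farthest from 0. It had 2.40, 6.16 and 4.21 CPM in the IL-33 KO libraries 1, 2 and 3, from 57, 146 and 87 counts. In WT 1, 2 and 3 it had 11.5, 21.1 and 16.4 CPM, from 228, 482 and 416 counts. IL-33 KO 1 was lowest, WT 2 was highest, and the groups did not overlap. The log2 fold change was -1.94 ± 0.36, with a 95% interval of -2.76 to -1.12. The adjusted p was 0.216 in edgeR and 2.99e-05 in DESeq2, and Fosb also passed in edgeR without a filter on low counts, with an adjusted p of 0.0416.

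Nr4a1, an orphan nuclear receptor of the NR4A family (ENSMUSG00000023034, chr15:101266846-101274792, plus strand), had 13.1, 14.5 and 17.4 CPM in the IL-33 KO libraries 1, 2 and 3, against 33.2, 28.0 and 25.5 CPM in WT 1, 2 and 3. The groups did not overlap, and the highest IL-33 KO library lay well under the lowest WT library. Its log2 fold change was -0.95 ± 0.16, with a 95% interval of -1.32 to -0.58, and the adjusted p was 0.187 in edgeR and 0.000695 in DESeq2. Nr4a1 had the 30th smallest p of all tested genes in edgeR and the 7th smallest of those lower in IL-33 KO.

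Over the 18 other settings tried, the log2 fold change stayed below 0 for Fos, Fosb and Nr4a1. It did so for Fosl1, Jun, Junb, Jund and Atf3 as well, so a steady sign does not set the 3 apart. The adjusted p of the 3 ranged over 0.0102 to 0.958 for Fos, 2.99e-05 to 0.730 for Fosb and 0.000695 to 0.728 for Nr4a1. An exact two-sided permutation test of the 6 CPM values gave p = 0.1 for each of the 3, the smallest that 3 against 3 libraries allow. Jund had the same p in this test. The value follows from the lack of overlap and adds nothing to it. In RNA of whole tissue pieces, fewer cells of a type and less RNA per cell cannot be told apart.

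**Figure D1:**
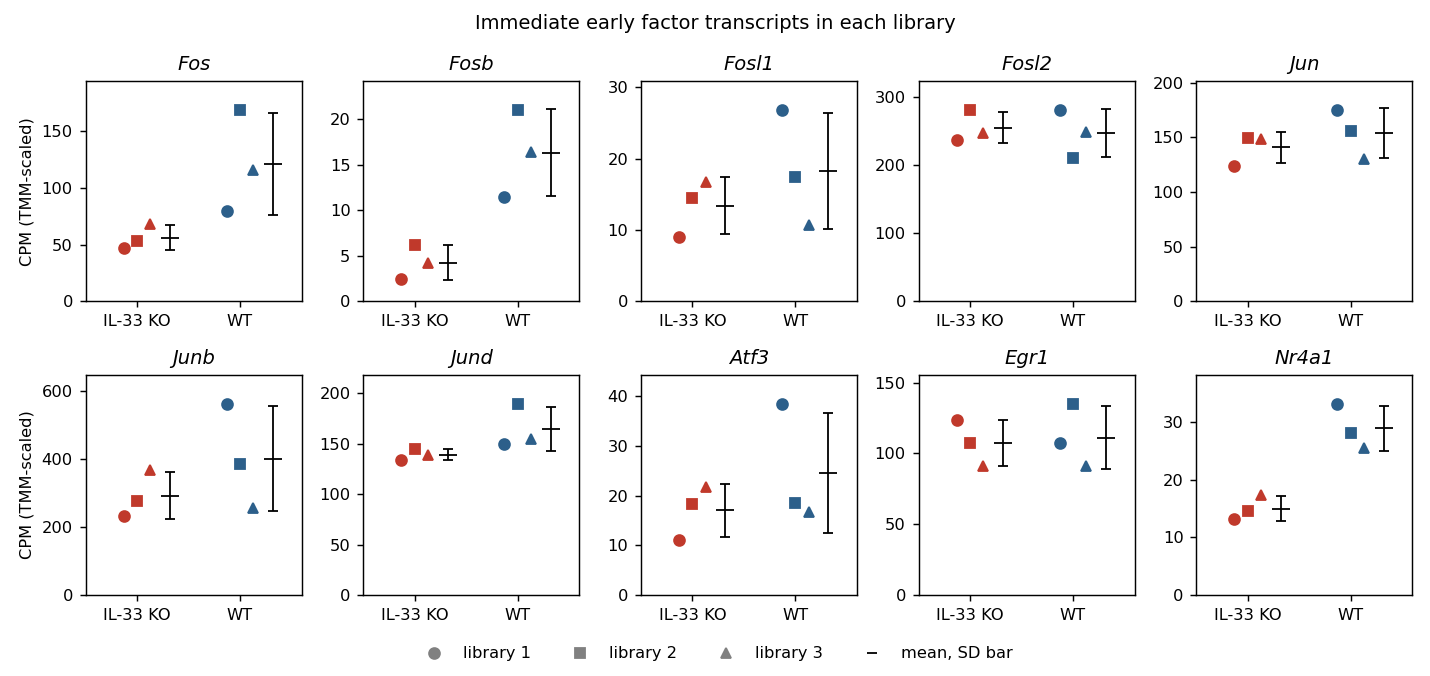
CPM of each factor in the 3 IL-33 KO libraries (red, left) and the 3 WT libraries (blue, right), with the mean and SD in black; the marker shape gives the library number and each axis starts at 0. Fos, Fosb, Jund and Nr4a1 have no overlap between the genotypes, and WT 1 (circle) is the highest library for Fosl1, Junb and Atf3.

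The start regions of the 3 factors with the widest differences are shown with that of Junb, which had another pattern over the libraries. Some known stimulus-responsive elements of such genes lie close to the start site. Each line gives 300 bases of the gene's own strand from RefSeq on GRCm38.p6, from 250 bases before the start site to 50 after it. The windows are chr12:85473640-85473939 for Fos, chr7:19309996-19310295 for Fosb, chr15:101266596-101266895 for Nr4a1 and chr8:84978699-84978998 for Junb. Capitals mark matches on either strand to the half-site of the cAMP response element (TGACG, or CGTCA on the other strand), the EGR site GCGNGGGCG and the TATA box TATAAA.
Fos: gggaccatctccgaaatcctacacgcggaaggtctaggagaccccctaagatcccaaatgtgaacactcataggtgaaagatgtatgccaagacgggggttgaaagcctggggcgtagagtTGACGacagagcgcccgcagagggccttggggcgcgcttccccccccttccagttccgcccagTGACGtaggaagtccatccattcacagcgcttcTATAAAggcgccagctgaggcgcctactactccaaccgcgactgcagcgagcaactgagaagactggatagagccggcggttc
Fosb: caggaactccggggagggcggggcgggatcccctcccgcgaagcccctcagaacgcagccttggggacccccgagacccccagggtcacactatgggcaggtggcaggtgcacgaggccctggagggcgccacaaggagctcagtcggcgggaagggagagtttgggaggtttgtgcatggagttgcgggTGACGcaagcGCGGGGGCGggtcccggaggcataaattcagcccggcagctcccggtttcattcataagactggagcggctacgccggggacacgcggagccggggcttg
Nr4a1: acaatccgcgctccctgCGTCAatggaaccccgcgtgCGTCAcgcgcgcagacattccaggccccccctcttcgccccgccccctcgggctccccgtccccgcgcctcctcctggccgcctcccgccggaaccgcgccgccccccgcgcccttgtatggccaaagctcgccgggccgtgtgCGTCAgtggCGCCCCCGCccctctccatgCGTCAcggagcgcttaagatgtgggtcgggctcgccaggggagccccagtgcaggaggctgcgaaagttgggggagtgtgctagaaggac
Junb: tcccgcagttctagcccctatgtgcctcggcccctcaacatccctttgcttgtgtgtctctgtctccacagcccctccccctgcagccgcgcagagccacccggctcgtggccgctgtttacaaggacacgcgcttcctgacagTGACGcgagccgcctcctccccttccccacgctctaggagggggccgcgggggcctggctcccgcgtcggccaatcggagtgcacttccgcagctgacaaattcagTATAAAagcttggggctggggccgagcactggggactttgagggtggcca
The half-site of the cAMP response element, through which CREB and ATF proteins act, was present in all 4 windows. Fos held it at -129 to -125 and at -66 to -62, Fosb at -60 to -56, and Junb at -106 to -102, counted from the start site with no position 0. Nr4a1 held 4 copies, all on the opposite strand, at -233, -213, -69 and -40 by their first base. Fosb, Nr4a1 and Fosl2 held an EGR site, the binding site of Egr1 and its relatives. The letters of the TATA box were found in Fos at -33 to -28, upstream of the start as in a working TATA box, and in Junb at 1 to 6, inside the annotated transcript.

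RefSeq windows were used for 8 of the 10 factors, and Fosl1 and Egr1 were not among them. Windows on chr18, where Egr1 lies, had been left out for the factors but not from the count of all windows. The CRE half-site was in 5 of these 8 windows (Fos, Fosb, Junb, Atf3 and Nr4a1) and in 20.8% of all 32851 windows of this length. The EGR site was in 3 of 8 and in 5.55% of all windows, and the TATA letters in 2 of 8 and in 13.6%. The AP-1 site TGANTCA was in 0 of 8 and in 7.81% of all windows. The full CRE TGACGTCA, which contains 2 overlapping half-sites, was in 0 of 8 and in 1.79%, and the CArG box, the core of the serum response element, was in 0 of 8 and in 1.63%. With shares as low as 1.79% and 1.63%, 0 of 8 windows decides nothing about these genes. All these counts describe the letters of 300 bases and say nothing of binding or of elements farther away.

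Junb, Fosl1 and Atf3 overlapped between the genotypes, and their lower IL-33 KO means rested on WT 1. Junb, a Jun family subunit prominent in keratinocytes (ENSMUSG00000052837, chr8:84976909-84978748, minus strand), had 232, 277 and 369 CPM in the IL-33 KO libraries 1, 2 and 3, against 564, 385 and 256 CPM in WT 1, 2 and 3. WT 3 lay between IL-33 KO 1 and 2. Its log2 fold change was -0.46 ± 0.29 (95% interval -1.13 to 0.22, adjusted p 0.656 in edgeR), and -0.13 without WT 1.

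Fosl1, which encodes Fra-1, a Fos family protein without the transactivation domain of Fos (ENSMUSG00000024912, chr19:5447703-5455945, plus strand), had 8.98, 14.6 and 16.7 CPM in IL-33 KO libraries and 26.9, 17.4 and 10.6 CPM in WT libraries 1, 2 and 3. Atf3, a stress-induced bZIP protein that can pair with Jun (ENSMUSG00000026628, chr1:191170296-191183340, minus strand), had 11.1, 18.2 and 21.7 CPM in IL-33 KO libraries and 38.5, 18.6 and 16.7 CPM in WT libraries 1, 2 and 3. For both genes WT 1 was highest and IL-33 KO 1 lowest, with the other 4 libraries mixed. The log2 fold change was -0.45 ± 0.35 for Fosl1 (95% interval -1.25 to 0.36, adjusted p 0.708 in edgeR) and -0.53 ± 0.36 for Atf3 (95% interval -1.36 to 0.30, adjusted p 0.672 in edgeR). Without WT 1 these values were -0.06 and -0.05, and without IL-33 KO 1 they were -0.23 and -0.30.

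WT 1 also stood apart in S100a8 and S100a9, the calprotectin genes of neutrophils, which stressed keratinocytes express as well. Together they summed to 1373, 1743 and 2255 CPM in the IL-33 KO libraries 1, 2 and 3, against 6835, 2546 and 1387 CPM in WT 1, 2 and 3. The whole leukocyte list, of which 12 of 14 markers were in the tables, summed to 1793 to 2624 CPM in IL-33 KO libraries and 1860 to 7264 CPM in WT libraries. Its other 10 markers summed to 369 to 421 CPM in IL-33 KO libraries and 348 to 472 CPM in WT libraries. WT 1 had 429 CPM, within the range of the other WT libraries, but H2-Ab1 alone made up 222 CPM of it. Itgam, Ly6g, Itgax and Ptprc were highest in WT 1, Itgam at 74.3 CPM against 29.0 to 46.2 CPM elsewhere. Cd68, H2-Ab1, Cd3e, Cd4, Cd8a and Cd79a were highest in other libraries. Of the 12, 8 were lower and 4 higher in IL-33 KO, where 52% of all tested genes were lower. Of these 12 markers 0 passed over all genes in edgeR or DESeq2, and none was at 0 in all libraries. In edgeR 1 had an unadjusted p under 0.05 (higher), against 9.02% of all tested genes in either direction. The part of any leukocytes in the Junb, Fosl1 and Atf3 values was not tested.

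Jun, Jund, Fosl2 and Egr1 had the smallest genotype differences. Jun, an AP-1 subunit of the Jun family (ENSMUSG00000052684, chr4:95049034-95052222, minus strand), had 124, 149.5 and 148.9 CPM in the IL-33 KO libraries 1, 2 and 3. In WT 1, 2 and 3 it had 175, 156 and 129.9 CPM. The groups overlapped, and the log2 fold change of -0.13 had a 95% interval of -0.47 to 0.22 (edgeR). The antisense gene Junos overlaps Jun and had 40 to 65 counts per library, where Jun had 2941 to 3574. Whether counting used the strand is not stated, so reads of the pair may not be told apart where they overlap.

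Jund, the Jun family member that is expressed in resting cells as well (ENSMUSG00000071076, chr8:70697739-70700616, plus strand), had 133.9, 144.5 and 138.6 CPM in the IL-33 KO libraries 1, 2 and 3, a narrow range. In WT 1, 2 and 3 it had 149.6, 189.8 and 155 CPM, all above the IL-33 KO libraries. The log2 fold change was -0.25 ± 0.13 (95% interval -0.55 to 0.06, adjusted p 0.607 in edgeR). In the deposited FPKM values, which are scaled by total counts alone, the genotypes overlapped. With Jund, 4 of the 10 factors were lower in CPM in every IL-33 KO library than in any WT library, against 6.47% of all tested genes. No factor was higher in every IL-33 KO library, against 7.46% of all tested genes.

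Fosl2, which encodes Fra-2 (ENSMUSG00000029135, chr5:32136472-32157831, plus strand), had 237, 282 and 248 CPM in IL-33 KO libraries and 282, 211 and 249 CPM in WT libraries 1, 2 and 3. Its log2 fold change was 0.05 with a 95% interval of -0.30 to 0.39, the sole value above 0 among the 10. Egr1, a zinc finger factor usually induced together with Fos by growth signals (ENSMUSG00000038418, chr18:34859823-34864984, plus strand), had 124, 107 and 91.1 CPM in IL-33 KO libraries and 108, 135 and 90.8 CPM in WT libraries 1, 2 and 3. The lowest libraries of both genotypes were nearly equal, and the log2 fold change of -0.05 had a 95% interval of -0.46 to 0.36, a fold of 0.726 to 1.28. Its sign turned to 0.04 with scaling by total counts, 0.05 without IL-33 KO 3 and 0.11 without WT 2, and that of Fosl2 turned to -0.03 without IL-33 KO 2 and to -0.05 without WT 2.

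**Figure D2:**
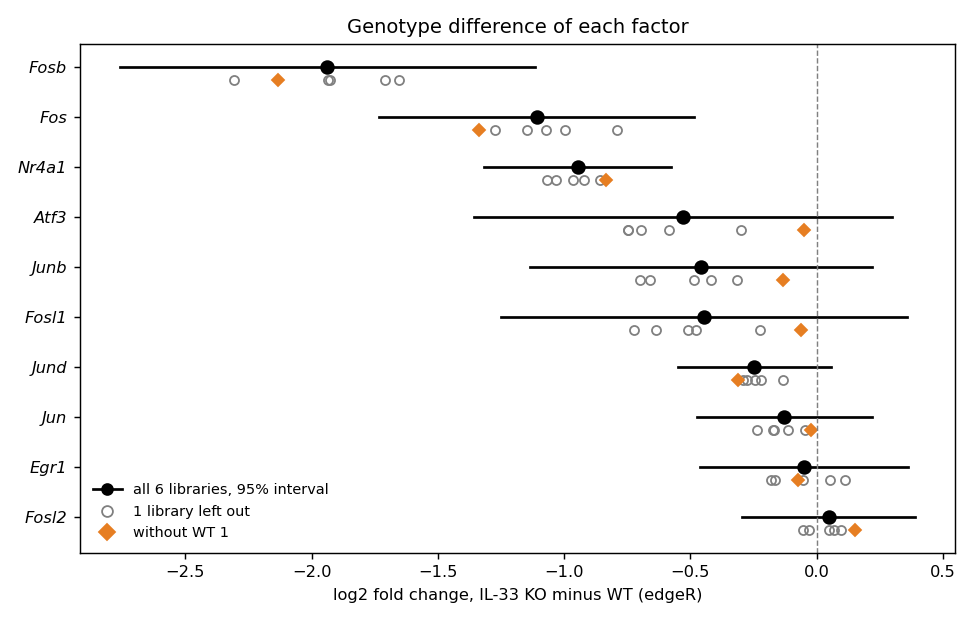
Log2 fold change of each factor, IL-33 KO minus WT (horizontal axis), from the edgeR fit of all 6 libraries with its 95% interval (black), and with 1 library left out in turn (open circles; orange diamond, without WT 1). The values of Fosb, Fos and Nr4a1 are -0.79 or lower whichever library is left out, and those of Atf3, Junb and Fosl1 lie between -0.13 and -0.05 without WT 1.

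Across the 10 factors 9 had a log2 fold change below 0, as had 52% of all tested genes, and the median was -0.45, against -0.01 over all tested genes, of which 7.15% lay below -0.45. The median was -0.10 without WT 1, -0.26 without IL-33 KO 1 and -0.71 without WT 3. Without WT 3 the count of factors with an unadjusted p under 0.05 in edgeR was 5 in place of 3.

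Centred on its own mean, each factor showed which libraries carried the difference. Fos was highest in WT 2, 1.07 above its mean on the log2 CPM scale, and at its mean (-0.02) in WT 1. Fosb followed the same order among the WT libraries, at 1.40 in WT 2, 1.04 in WT 3 and 0.53 in WT 1. Fosl1, Junb, Atf3 and Nr4a1 were highest in WT 1, at 0.85, 0.77, 0.99 and 0.68. Jun and Fosl2 were highest there too, at 0.26 and 0.17, with Fosl2 in IL-33 KO 2 as high at 0.17. Among the IL-33 KO libraries, 9 factors had their lowest value in IL-33 KO 1, and Egr1 had its highest there.

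**Figure D3:**
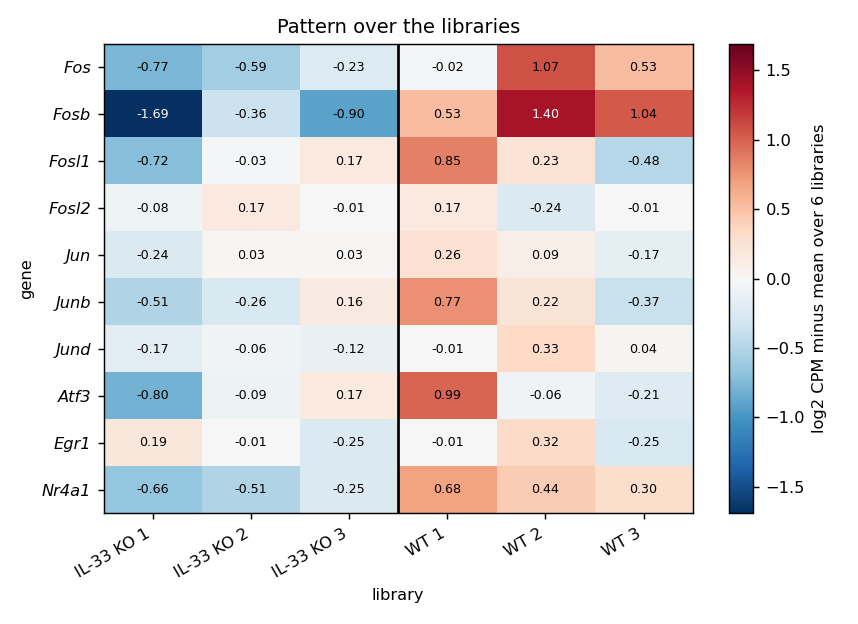
Log2 CPM of each factor (rows) in each library (columns, IL-33 KO left of the line, WT right), minus the gene's mean over the 6 libraries. Fos and Fosb peak in WT 2 at 1.07 and 1.40, whereas Atf3, Fosl1 and Junb peak in WT 1 at 0.99, 0.85 and 0.77.

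Of all tested genes outside the 10, those with a pattern nearest to that of Fos included Scgb1a1, Bend7, Zic4, Cnbd2, RP23-4H17.1, Nnt and Ccl2, by the root mean square difference of centred log2 CPM over the 6 libraries, which was 0.232 to 0.274. The first 5 of these are sparse transcripts, with at most 2.62 CPM in any library. Genes chosen for nearness to Fos are lower in IL-33 KO by that choice, so their direction is no separate result. Nnt, a proton-pumping transhydrogenase of mitochondria, had 9.53, 9.07 and 9.92 CPM in IL-33 KO libraries and 14.5, 21.9 and 24.6 CPM in WT libraries 1, 2 and 3. Ccl2, which encodes a chemokine for monocytes, had 6.24, 5.48 and 7.84 CPM in IL-33 KO libraries and 14.2, 17.3 and 13.6 CPM in WT libraries 1, 2 and 3. Among the other factors Nr4a1 was nearest to Fos, at rank 132 of 15719 genes with a difference of 0.400, then Jund at rank 883 and Fosb at rank 3675. The measure counts the size of the deviations as well as their order, and Fosb spanned a wider range than Fos. Atf3 was farthest, at rank 10571.

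Per gene length, Junb was the most abundant of the 10 transcripts in both genotypes. Its level was 163 ± 35.3 FPKM in IL-33 KO skin and 209 ± 70.6 FPKM in WT (SD, n = 3), and it did not overlap with the next gene in either genotype. In IL-33 KO skin the order after Junb was Jund (49.6 ± 0.845 FPKM), Jun (45.3 ± 3.08), Fosl2 (44.8 ± 2.92), Fos (27.4 ± 4.71), Egr1 (24.7 ± 4.56), Atf3 (8.75 ± 2.56), Fosl1 (8.03 ± 2.17), Nr4a1 (6.23 ± 0.774) and Fosb (1.16 ± 0.479). Neighbours whose 3 libraries overlapped there were Jun and Fosl2, Fos and Egr1, Atf3 and Fosl1, and Fosl1 and Nr4a1. In WT skin the gene after Junb was Fos, at 55.9 ± 20.2 FPKM, followed by Jund (55.6 ± 6.82), Jun (46.6 ± 4.30), Fosl2 (41.1 ± 6.17), Egr1 (24.0 ± 3.83), Atf3 (11.9 ± 5.35), Nr4a1 (11.3 ± 1.03), Fosl1 (10.3 ± 4.10) and Fosb (4.23 ± 1.25). Fos, Jund, Jun and Fosl2 overlapped there from neighbour to neighbour, as did Atf3, Nr4a1 and Fosl1. Fos thus had rank 5 in IL-33 KO skin and rank 2 in WT, where its place among Jund, Jun and Fosl2 was not separated by the libraries.

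The summed level of the 7 AP-1 subunit transcripts was 301, 332 and 385 FPKM in the IL-33 KO libraries 1, 2 and 3 and 482, 429 and 358 FPKM in WT 1, 2 and 3, and the genotypes overlapped. Jun subunits made up 75.5%, 74.8% and 77.5% of that sum in IL-33 KO libraries and 79.8%, 71.1% and 68.4% in WT libraries 1, 2 and 3. Fos alone made up 7.97%, 7.65% and 8.50% in IL-33 KO libraries and 7.27%, 17.6% and 16.0% in WT libraries 1, 2 and 3. WT 1, where Junb took 59.2%, thus lay below the IL-33 KO libraries in the share of Fos, although it lay above them in its level.

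Ratios within the Fos family were taken for 3 chosen pairs, each holding Fos, whose own CPM did not overlap between the genotypes. How often ratios of other gene pairs overlap was not counted. The ratio of Fos to Fosl2 was 0.552, 0.526 and 0.764 in IL-33 KO libraries and 0.782, 2.22 and 1.29 in WT libraries 1, 2 and 3, on the FPKM scale. That of Fosb to Fos was 0.0287, 0.0649 and 0.0346 in IL-33 KO libraries and 0.0814, 0.0700 and 0.0798 in WT libraries 1, 2 and 3. In both ratios all IL-33 KO libraries lay below all WT libraries, by a narrow margin at the edge. The ratio of Fosl1 to Fos overlapped, at 0.236, 0.337 and 0.303 in IL-33 KO libraries and 0.418, 0.127 and 0.114 in WT libraries 1, 2 and 3. That of Fos to Egr1 overlapped too, at 0.811, 1.06 and 1.59 in IL-33 KO libraries and 1.57, 2.66 and 2.70 in WT libraries 1, 2 and 3. These ratios are descriptions and were not tested.

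**Figure D4:**
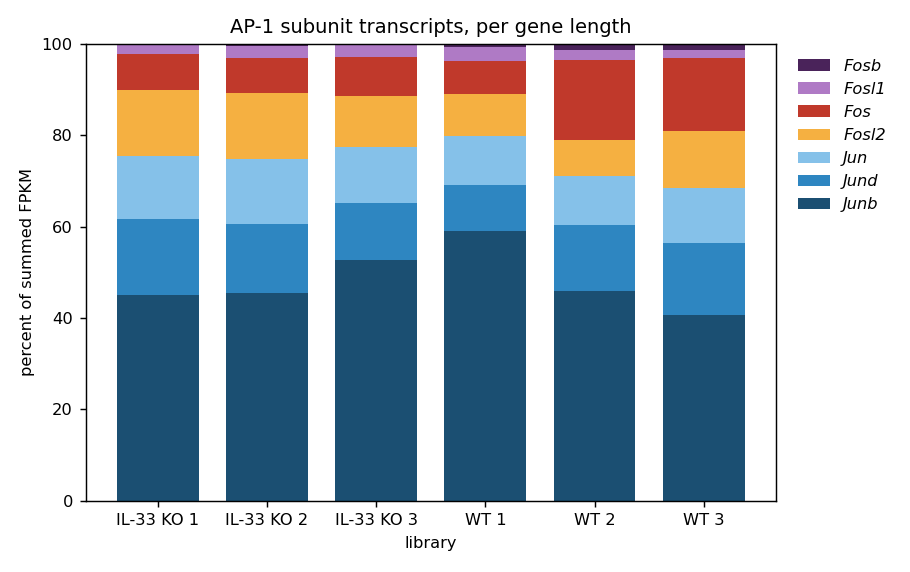
Share of each AP-1 subunit transcript in the summed FPKM of the 7 subunits (vertical axis, percent), for each IL-33 KO library (left) and WT library (right). Fos (red) takes 7.65% to 8.50% in IL-33 KO libraries and 7.27%, 17.6% and 16.0% in WT 1, 2 and 3.

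Other immediate early genes were mostly lower in IL-33 KO too, without a call over all genes. Of 46 listed symbols 44 were tested (Egr4 and Npas4 had too few counts), of which 33 were lower and 11 higher, where 52% of all tested genes were lower. The median log2 fold change was -0.26. The list summed to 3036, 3505 and 3653 CPM in IL-33 KO libraries 1, 2 and 3, and 4816, 4019 and 3279 CPM in WT 1, 2 and 3. The genotypes overlapped and WT 1 was highest. The counts of direction were not repeated without WT 1. In edgeR 0 passed over all genes and 3 had an unadjusted p under 0.05, all lower. Of all tested genes 4.15% did so in that direction and 9.02% in either. Without overlap, 2 of the 44 were lower, against 6.47% of all tested genes, and 0 were higher, against 7.46%. DESeq2 called 2, Cyr61 and Dusp1, both lower, against 0.255% of all genes it tested. Cyr61, which encodes a matricellular protein, had 34.2, 31.4 and 34.5 CPM in IL-33 KO libraries and 51.9, 52.1 and 61.6 CPM in WT libraries 1, 2 and 3. Each genotype was tight and the gap between them wide, with a log2 fold change of -0.73 ± 0.12 and an adjusted p of 0.187 in edgeR. Dusp1, a phosphatase that switches off MAP kinases, had 50.2, 77.2 and 97.2 CPM in IL-33 KO libraries and 138, 150.2 and 126 CPM in WT libraries 1, 2 and 3. Its groups did not overlap either, and its adjusted p was 0.389 in edgeR. Zfp36, which encodes an RNA-binding protein that speeds the decay of cytokine and Fos transcripts, averaged 78.4 ± 12.2 CPM in IL-33 KO skin and 111 ± 27.5 CPM in WT (SD, n = 3), with overlap and an adjusted p of 0.539 in edgeR.

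The close relatives of Egr1 and Nr4a1, named here for their family and outside the rule, overlapped between the genotypes. Egr2 averaged 63.4 ± 16.0 CPM in IL-33 KO skin and 75.8 ± 17.5 CPM in WT, and Egr3 50.4 ± 6.08 CPM in IL-33 KO skin and 43.0 ± 6.90 CPM in WT (SD, n = 3). Nr4a2 averaged 3.06 ± 0.368 CPM in IL-33 KO skin and 3.91 ± 0.948 CPM in WT. Nr4a3 averaged 7.22 ± 3.12 CPM in IL-33 KO skin and 10.8 ± 7.18 CPM in WT, and WT 1 was its highest library at 18.9 CPM.

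Transcripts of proteins that act above and beside AP-1 were split in direction, as were all tested genes, of which 52% were lower. Of 33 tested kinases and SRF partners 15 were lower and 18 higher, the median log2 fold change being 0.01, and 0 passed over all genes in edgeR or DESeq2. The 3 with the smallest p were higher in IL-33 KO without overlap: the MAP kinase kinase kinases Map3k5, at 36.8 ± 7.76 CPM in IL-33 KO skin and 24.9 ± 1.65 CPM in WT, and Map3k1, at 81.5 ± 13.2 CPM in IL-33 KO skin and 53.3 ± 13.2 CPM in WT, and the kinase Braf, at 50.0 ± 9.13 CPM in IL-33 KO skin and 35.4 ± 7.23 CPM in WT (SD, n = 3 each). Their adjusted p was 0.440, 0.473 and 0.527 in edgeR. These were the 3 of 33 with an unadjusted p under 0.05, a share close to the 9.02% of all tested genes in either direction. Without overlap, 5 of the 33 were higher, against 7.46% of all tested genes, and 1 was lower, against 6.47%. Of 20 tested bZIP partners, 10 were lower and 10 higher, 0 passed in either tool, and 0 had an unadjusted p under 0.05. The smallest p belonged to Jdp2, a repressor that pairs with Jun, at 21.4 ± 3.16 CPM in IL-33 KO skin and 26.3 ± 1.70 CPM in WT, to Atf2, at 34.9 ± 1.57 CPM in IL-33 KO skin and 29.5 ± 2.70 CPM in WT, and to Crem, at 10.4 ± 3.32 CPM in IL-33 KO skin and 14.0 ± 5.84 CPM in WT.

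Known AP-1 target genes of skin and stroma were lower in 19 of 22 tested members and higher in 3, where 52% of all tested genes were lower, the median log2 fold change being -0.43. In edgeR 0 passed over all genes, and 3 had an unadjusted p under 0.05 in the lower direction, against 4.15% of all tested genes, and 1 in the higher. DESeq2 called 2, both lower, against 0.255% of all genes it tested: Ccl2, whose values stand above, and the neutrophil chemokine gene Cxcl1. Cxcl1 had 2.78, 2.95 and 5.51 CPM in IL-33 KO libraries and 23.8, 7.86 and 7.53 CPM in WT libraries 1, 2 and 3, without overlap and with WT 1 far above the rest. Areg, which encodes the epidermal growth factor receptor ligand amphiregulin, averaged 22.3 ± 6.52 CPM in IL-33 KO skin and 37.1 ± 9.41 CPM in WT, with overlap and an adjusted p of 0.487 in edgeR. The list holds Fosl1 as well, some symbols stand in more than 1 list, and Ccl2 and Cxcl1 are also targets of NF-kB.

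**Figure D5:**
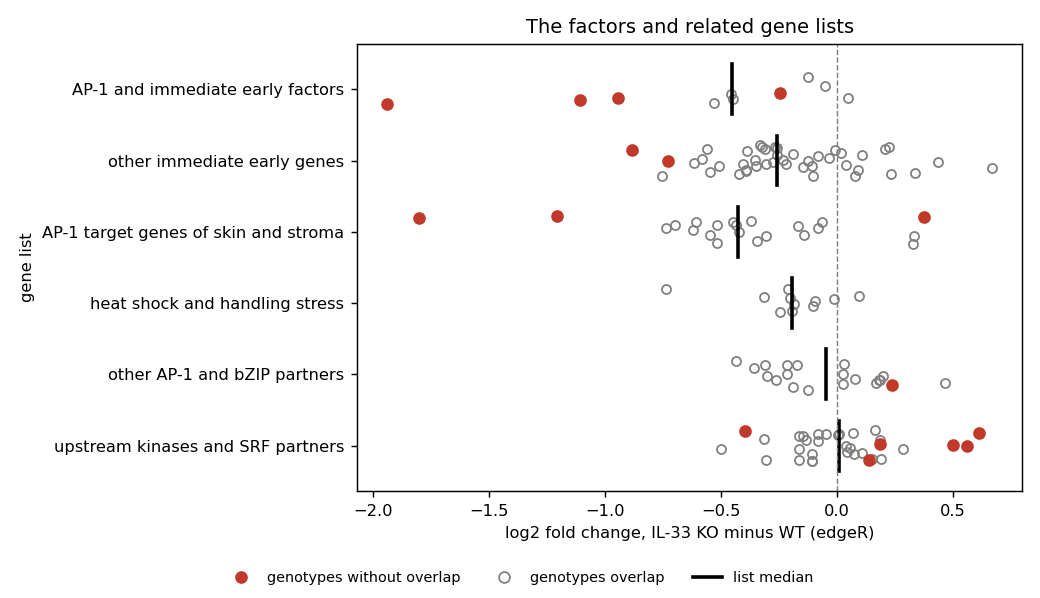
Log2 fold change, IL-33 KO minus WT (horizontal axis), of every tested gene of 6 lists (rows; vertical scatter within a row has no meaning), with the median as a bar and filled points where the genotypes do not overlap. The medians are -0.45 for the 10 factors, -0.26 for other immediate early genes, -0.43 for AP-1 targets, -0.19 for heat shock genes, -0.05 for bZIP partners and 0.01 for kinases and SRF partners.

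Immediate early genes are known to respond to tissue handling, and heat shock genes often respond with them. Of 11 heat shock genes 10 were lower and 1 higher in IL-33 KO skin, where 52% of all tested genes were lower. The median log2 fold change was -0.19, and 0 passed over all genes in edgeR or DESeq2. In edgeR 1 (Hspb1, lower) had an unadjusted p under 0.05, against 4.15% of all tested genes in that direction. The summed level of the 11 was 2157 to 2721 CPM in IL-33 KO libraries and 2662 to 3018 CPM in WT libraries. The smallest p belonged to Hspb1, a small heat shock protein gene, at 265 ± 39.1 CPM in IL-33 KO skin and 442 ± 197 CPM in WT, to the co-chaperone gene Bag3, at 52.8 ± 4.24 CPM in IL-33 KO skin and 65.6 ± 11.9 CPM in WT, and to Hspa1b, at 160.9 ± 16.9 CPM in IL-33 KO skin and 190.9 ± 34.8 CPM in WT. The time from killing to lysis is not stated in the labels, and the part of handling in the Fos, Fosb and Nr4a1 values was not tested.

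Among the cell type marker lists, the sums of hair follicle and skeletal muscle markers did not overlap between the genotypes, and those of the others did. Beside the counts of lower and higher markers below, 52% of all tested genes were lower in IL-33 KO. In edgeR 0 markers passed over all genes, and DESeq2 called 10 hair follicle, 5 skeletal muscle and 2 melanocyte markers, all higher in IL-33 KO, against 1.26% of all genes it tested. Hair follicle markers were higher in IL-33 KO in 18 of 18 tested genes, 16 of them without overlap, against 7.46% of all tested genes, and summed to 11364 to 23402 CPM in IL-33 KO libraries and 2858 to 6650 CPM in WT libraries. Fibroblast markers were lower in 7 of 8 and summed to 12033 to 14060 CPM in IL-33 KO libraries and 12818 to 22923 CPM in WT libraries, with WT 3 highest. Mast cell markers were lower in 5 of 6 and summed to 241 to 310 CPM in IL-33 KO libraries and 294 to 375 CPM in WT libraries. Interfollicular keratinocyte markers were lower in 10 of 13 and summed to 34414 to 56177 CPM in IL-33 KO libraries and 45742 to 74040 CPM in WT libraries. Skeletal muscle markers were higher in 7 of 7 tested genes and summed to 21.8 to 301 CPM in IL-33 KO libraries and 15.2 to 20.9 CPM in WT libraries. Endothelial markers were lower in 2 of 6 and summed to 182 to 208 CPM in IL-33 KO libraries and 185 to 219 CPM in WT libraries. Adipocyte markers were lower in 1 of 8 and summed to 668 to 908 CPM in IL-33 KO libraries and 161 to 673 CPM in WT libraries. Melanocyte markers were higher in 5 of 5 and summed to 125 to 269 CPM in IL-33 KO libraries and 70.5 to 136 CPM in WT libraries. No marker of these lists that is in the tables was at 0 in all 6 libraries, and the part of any of these cell types in the values of the 10 factors was not tested.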

How the data were processed

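The authors deposited read counts and FPKM values per gene for 6 libraries. The submitters' processing notes name STAR, RSEM and mm10 without versions or settings. Counts, whole numbers in the deposited table, entered the tests as they stand. Each deposited FPKM value is its count over gene length and column total (largest relative difference 2.78e-07), so FPKM holds the same reads without TMM factors. Strand use and the division of multi-mapped reads are not stated.

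Groups were taken from sample titles. The genotype effect on counts was fitted with edgeR 4.0.16 (R 4.3.3): filterByExpr, TMM scaling, glmQLFit and glmQLFTest, two-sided, Benjamini-Hochberg over 15720 genes, threshold 0.05; standard errors were derived from the F statistic and intervals cover 95%. The scripts were tested on simulated data. The other settings were other scalings and filters, robust edgeR, DESeq2 1.42.0, limma 3.58.1 on voom values and on log2(FPKM + 1) or log2(FPKM + 0.1), a replicate block, and each library left out. Log2 CPM for patterns used a prior count of 2. Every pair of libraries differed by more than sampling noise (chi-square per degree of freedom at least 31.7).

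The 10 factors and all gene lists were chosen with earlier results of these data known. By rule the text names the 10 factors, the 3 smallest p in each related list, and the 8 genes nearest to Fos, of which 1 is not reported here. Depth was 20459574 to 24359612 counts per library, and 3 libraries per genotype limit the precision. Figures were drawn with matplotlib 3.10.9.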

Additional observations from a re-analysis of the deposited data

How the results depend on the processing

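Of the 10 factors, 0 passed an adjusted p of 0.05 in the edgeR fit, 1 (Fosb) did without a filter on low counts and 3 did in DESeq2; 0 did in each fit that left out 1 library. All genes called numbered 3, and 5 with upper quartile factors, total counts or a minimum of 1 CPM, 33 without a filter, 233 in DESeq2, 11 in limma-voom, 15 with log2(FPKM + 1), 11 with log2(FPKM + 0.1), 6 with log2(FPKM + 1) unfiltered, and 2 to 24 when 1 library was left out. Of the 3 called genes 1 was lower in IL-33 KO, and 1 of 5 with total counts or upper quartile factors. At an unadjusted p under 0.05, 653 of 1418 genes were lower, and 334 of 1240 with total counts. The median log2 fold change of the 10 factors, -0.45, ranged over -0.71 to -0.10 when 1 library was left out. The log2 fold change of Egr1 turned to 0.044 with total counts, 0.038 with log2(FPKM + 1), filtered or not, and 0.039 with log2(FPKM + 0.1), and ranged over -0.18 to 0.11 with 1 library left out; that of Fosl2 ranged over -0.052 to 0.15. The cause of these shifts was not tested. With the replicate block 0 factors and 2 genes passed and the factors' median was -0.40. The deviations of same-numbered libraries correlated at -0.26, -0.12 and -0.38, so the numbers were not taken as pairs. In each IL-33 KO library Fosb had the fewest counts of the 10 factors, 57 to 146.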
